A study of Mus musculus with 6 samples.

Results

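MicroRNAs of the miR-23a/27a/24-2 cluster are made from 1 shared transcript, and a sister cluster carries miR-23b, miR-27b and a further copy of miR-24. The footprints described here are stretches of RNA held by Argonaute (Ago) in mouse macrophages whose sequence holds a match to the seed of miR-23, miR-27 or miR-24. A match was the 7-nt reverse complement of bases 2 to 8 of the mature miRNA, read in genome build mm9 on the strand of the footprint. The choice used sequence alone and no measured value. Of 6270 footprints, 244 held at least 1 such match, 95 of them for miR-23, 100 for miR-27 and 51 for miR-24. Both a miR-23 and a miR-27 match were held by 2 footprints.

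Ago HITS-CLIP recovers RNA cross-linked to Ago by immunoprecipitation, here with antibody 2A8, from bone-marrow-derived macrophages of C57BL/6 mice matured for 7 days in medium with M-CSF at 20 ng/mL. The mice were 6 to 12 weeks old and made up 3 littermate pairs, giving 3 wild-type (WT) libraries and 3 APOBEC1-deficient (Apobec1-/-, here KO) libraries. APOBEC1 deaminates cytidine in mRNA and so turns C into U. The study asked where Ago binding and this editing overlap. The authors deposited 1 occupancy value per genotype for each footprint, a ratio of its signal to the RNA-Seq expression of its transcript, and, for WT and KO, how many libraries held it. Only footprints found in 2 or more libraries of either genotype were kept, per the design text. No value is given per library and no read counts, so depth is unknown, the genotypes cannot be tested against each other, and every KO to WT difference below is a description without a replicate check.

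Ago proteins are guided to mRNA by miRNAs, and pairing of the seed is the main determinant of which mRNAs are bound. Binding in the 3′ UTR recruits factors that shorten the poly(A) tail and lower translation. In blood cells the cluster is known for effects on lineage choice and cell survival. miR-27 has been linked to lipid metabolism and inflammatory signalling in macrophages, and miR-24 to cell cycle genes. An A in the mRNA opposite base 1 of the miRNA extends a 7-nt match to the stronger 8-nt form, called an 8-mer below.

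The mature sequences, from RefSeq (GRCm38.p6), are shown because the seeds define the footprints. Capitals mark bases 2 to 8.
mmu-miR-23a-3p: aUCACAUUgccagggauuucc
mmu-miR-27a-3p: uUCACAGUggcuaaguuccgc
mmu-miR-27b-3p: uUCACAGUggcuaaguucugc
mmu-miR-24-3p: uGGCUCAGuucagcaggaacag
mmu-miR-128-3p: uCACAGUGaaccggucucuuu
The matches searched were AATGTGA for miR-23, ACTGTGA for miR-27 and CTGAGCC for miR-24. Only the strand of the footprint was searched. miR-27a and miR-27b share their seed, and so do the products of both miR-24 genes, so a match cannot be assigned to 1 cluster. miR-128, which belongs to neither, has a seed that is shifted by 1 base from that of miR-27. Of the 100 miR-27 footprints, 29 also held the overlapping miR-128 match CACTGTG, and 8 of the 95 miR-23 footprints held an overlapping match for miR-181.

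The target sites of the strongest footprints of each family are printed next, because these matches place the footprints in their families. Whether the occupancy values that follow depend on them was not tested. Each is 22 nt of mm9, 5′ to 3′ on the strand of the transcript, and ends at the base opposite base 1 of the miRNA. Capitals mark the 7-nt match, and a final a makes it an 8-mer.
Tnpo1, miR-23 match, chr13:99612962-99612983, minus strand: tcttacatactgtgAATGTGAa
Ccnd1, miR-23 match, chr7:152116557-152116578, minus strand: atctattttggcttAATGTGAt
Cfl2, miR-23 match, chr12:55961825-55961846, minus strand: tggatgtggttgtcAATGTGAa
Srpk2, miR-23 match, chr5:23012576-23012597, minus strand: tcatttccacttaaAATGTGAt
Stx12, miR-23 match, chr4:132410067-132410088, minus strand: tcttgttctacactAATGTGAc
Rap2b, miR-23 match, chr3:61170488-61170509, plus strand: acaaagacttcgtaAATGTGAt
Zbtb34, miR-23 match, chr2:33263369-33263390, minus strand: tttccatgttagacAATGTGAa
Sgk3, miR-27 match, chr1:9890125-9890146, plus strand: aaatcgtccagaaaACTGTGAa
Jmjd1c, miR-27 match, chr10:66718633-66718654, plus strand: acattgagacagttACTGTGAg
Ccl4, miR-27 match, chr11:83478120-83478141, plus strand: ctattgtggatatgACTGTGAa
Appbp2, miR-27 match, chr11:85005091-85005112, minus strand: tccggggaattcatACTGTGAa
Tnpo1, miR-27 match, chr13:99612968-99612989, minus strand: gtattttcttacatACTGTGAa
Ell2, miR-27 match, chr13:75909525-75909546, plus strand: tttaaccataacatACTGTGAc
Zbtb34, miR-27 match, chr2:33263317-33263338, minus strand: accccattgcacaaACTGTGAa
Rasa1, miR-24 match, chr13:85355455-85355476, minus strand: atctctaccaaactCTGAGCCt
Eri1, miR-24 match, chr8:36530650-36530671, minus strand: aatctgaagccactCTGAGCCa
Zfp871, miR-24 match, chr17:32909603-32909624, minus strand: agtactcttaactgCTGAGCCc
Tmx4, miR-24 match, chr2:134420391-134420412, minus strand: aattgtacataaccCTGAGCCt
Ankrd11, miR-24 match, chr8:125415292-125415313, minus strand: ctagaggtgaactgCTGAGCCc
Arhgap27, miR-24 match, chr11:103193149-103193170, minus strand: ctcaatctatggatCTGAGCCc
In Tnpo1 the miR-27 and miR-23 matches overlapped by 1 base, with the miR-27 match upstream. In Zbtb34 they were 45 nt apart.

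Ago footprints with a match lay almost wholly in 3′ UTRs, as did those of the whole table, and were spread over many genes. Of the 244, 239 overlapped an annotated 3′ UTR on their strand, against 6063 of all 6270 footprints. Of the rest, 1 lay in an intron of the kinase gene Prkcb and 4 overlapped no gene. They fell on 226 genes of the 2222 with any footprint, and 14 genes carried 2 of them. The median length was 73 nt, against 72 nt over all footprints, and lengths ran from 63 to 1092 nt. The longest, in the 3′ UTR of the cytoskeletal linker gene Plec, held 2 miR-24 matches. Footprints were found on 10 of 13 macrophage marker genes and on 0 of 5 T cell, 4 B cell, 5 neutrophil, 5 fibroblast and 4 dendritic cell markers. Of these markers, only Sirpa, an inhibitory receptor of macrophages, carried a match, for miR-23. The targeted gene, Apobec1, had 3 footprints with a summed occupancy of 0.312 in KO and 0.372 in WT, none with a match. The extent of the deletion is unstated, and these footprints therefore do not check the genotype.

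Matches for miR-27 and miR-23 were more frequent inside footprints than beside them, while for miR-24 no difference beyond the intervals was seen. miR-27 matches were held by 1.59% of footprints (95% Wilson interval 1.31% to 1.94%), against 0.933% (0.779% to 1.12%) of 12540 windows of equal length that start 50 nt to either side. For miR-23 the shares were 1.52% (1.24% to 1.85%) and 1.00% (0.845% to 1.19%). For both families the interval of the footprints lay above that of the windows. The share for miR-24 was 0.813% (0.619% to 1.07%) in footprints and 0.909% (0.757% to 1.09%) in the windows, with overlapping intervals. The windows are genomic, and 18.8% of them overlapped another footprint. All intervals below are over footprints and hold no replicate error.

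Counts of matches by distance from the footprint middle, which take in matches beyond the footprints, differed in the same way. miR-27 matches gathered just past the middle of the footprint, in the 10-nt bin from 5 to 14 nt downstream, which held 28 matches against a mean of 7.15 per bin farther out, from 55 nt away. Over the 5 bins around the middle the mean was 17.2 per bin, 2.41 times the outer mean. For miR-23 the highest bin lay on the middle itself with 24 matches, and the 5 bins averaged 13.4 against 8.85 outside. For miR-24 these values were 8.0 and 8.2, and its highest bin, with 16 matches, lay 100 nt downstream, outside most footprints. In footprints with a single match of the family, the median distance of the match from the middle was 5 nt downstream for miR-27 (0 to 5.5), 3 nt for miR-23 (-2.5 to 9) and -2.25 nt for miR-24 (-11.5 to 4.5).

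**Figure D1:**
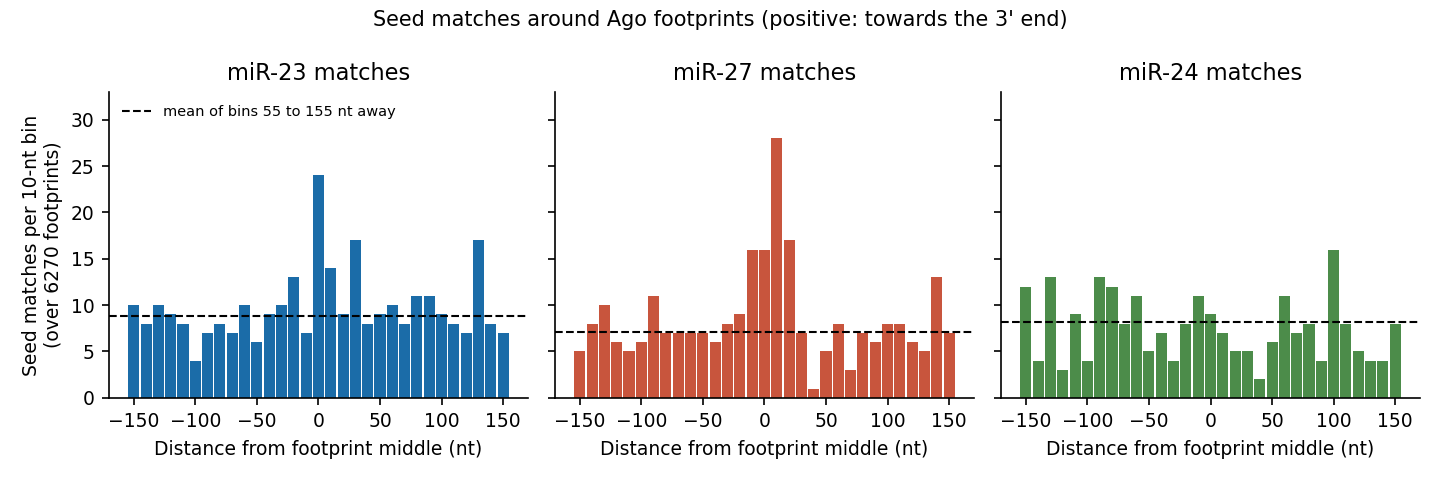
Number of seed matches (y axis) in 10-nt bins of distance from the middle of the footprint in nt (x axis, positive towards the 3′ end), over all 6270 footprints, with 1 panel per family. The dashed line is the mean of the outer bins, from 55 nt away. The highest bin holds 28 matches for miR-27, 24 for miR-23 and 16 for miR-24, the last far from the middle.

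The narrow Ago window, from 24 nt before to 22 nt after the middle, held 73.7% of the miR-27 matches, against 52.5% for the windows beside the footprints. For miR-23 it held 62.1% against 64.3%, and for miR-24 66.0% against 53.0%. By this measure the miR-23 share was not above that of its windows while the miR-24 share was, unlike in the counts by distance. The miR-24 shares rest on 33 of 50 and 61 of 115 matches. No intervals are given for these shares, so the differences are not set against their spread. In footprints of up to 80 nt the miR-24 share was 74.2%, with a median distance of 4 nt (-6 to 8). The 8-mer form made up 40.6% of miR-27 matches in footprints (31.5% to 50.3%) and 33.1% (25.2% to 41.95%) in windows 50 nt away. It made up 36.8% and 39.7% of miR-23 matches, and 36.5% and 37.4% of miR-24 matches. The intervals overlapped in each family.

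The share with a miR-27 match was higher, and that with a miR-24 match lower, among stronger footprints, though with overlapping intervals. Footprints were ordered by their mean occupancy over both genotypes and split into 4 groups of equal size. miR-27 matches were held by 1.15% of the weakest group (0.727% to 1.81%) and 2.10% of the strongest (1.502% to 2.94%). The miR-24 shares were 1.40% (0.928% to 2.12%) and 0.574% (0.302% to 1.09%). For miR-23 they were 1.28% and 1.79%, with 1.72% and 1.28% in the groups between. The intervals of the weakest and strongest groups overlapped for all 3 families, and median G+C content went from 45.1% in the weakest to 42.4% in the strongest group. Its part in these shares was not tested.

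**Figure D2:**
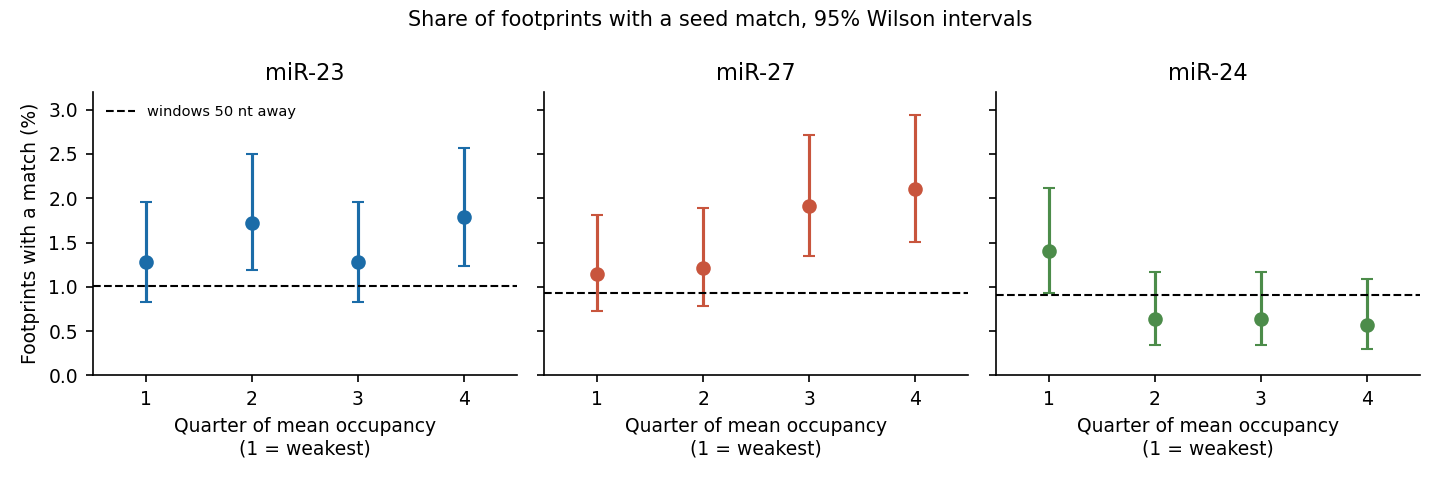
Percent of footprints with a seed match (y axis) in 4 groups of mean occupancy (x axis, 1 the weakest), with 95% Wilson intervals, and 1 panel per family. The dashed line is the share in windows 50 nt away. The miR-27 shares go from 1.15% to 2.10% and the miR-24 shares from 1.40% to 0.574%.

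Mean occupancy had a median of 0.529 for miR-27, 0.447 for miR-23 and 0.254 for miR-24, against 0.425 over all footprints. By genotype the median was 0.516 in KO and 0.519 in WT for footprints with a miR-27 match, 0.364 and 0.533 with a miR-23 match, and 0.265 and 0.238 with a miR-24 match. Over all footprints these were 0.377 and 0.406. The quartiles were wide, from 0.232 to 1.07 in KO and 0.287 to 1.19 in WT for miR-27. Footprints with an 8-mer had a median mean occupancy of 0.519 (0.350 to 0.617), and those with a 7-nt match alone 0.447 (0.335 to 0.542).

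The strongest miR-27 footprints lay on genes for a kinase, a chromatin enzyme and a chemokine. Sgk3, a kinase of the SGK family activated through phosphoinositides, had an occupancy of 4.59 in KO and 8.66 in WT at chr1:9890094-9890156. All 6 libraries held this footprint, and its value was the highest of the 244 in WT. Jmjd1c, a member of the histone demethylase family JMJD1, had 5.41 in KO and 3.72 in WT (chr10:66718592-66718678). Ccl4, which encodes the chemokine MIP-1β, had 4.14 and 3.03 (chr11:83478084-83478148), in a 3′ UTR of 305 nt. Jmjd1c and Ccl4 were higher in KO, while Sgk3 was lower. Appbp2, whose protein binds the amyloid precursor, had 2.84 in KO and 3.28 in WT, with its match 4.5 nt downstream of the footprint middle. Ell2, an elongation factor of RNA polymerase II, had 2.64 and 3.25. Sgk3, Ccl4 and Appbp2 carried the 8-mer, and Jmjd1c and Ell2 did not.

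Tnpo1, the nuclear import receptor transportin 1, was among the strongest of both miR-23 and miR-27. Its footprint at chr13:99612923-99613007 had 1.42 in KO and 4.52 in WT (log2 ratio -1.67) and was held by 2 KO and 3 WT libraries. Both matches were 8-mers. The other footprint with both, in the zinc finger gene Zbtb34 (chr2:33263314-33263461), had 1.65 in KO and 1.99 in WT.

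Among the strongest miR-23 footprints were genes of the cell cycle, of actin and of membrane traffic. Ccnd1, which encodes cyclin D1, had 2.80 in KO and 2.98 in WT (chr7:152116500-152116565). Cfl2, an actin-severing cofilin, had 4.27 and 1.23 (chr12:55961814-55961880). The cofilin footprint was thus over 2-fold higher in KO, while cyclin D1 was close to equal. Srpk2, a kinase of splicing factors, had 2.39 and 2.72. Stx12, a syntaxin of endosomes, had 2.65 and 1.85. The small GTPase gene Rap2b had 2.18 and 2.24. Stx12 and Rap2b were held by all 6 libraries.

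The strongest miR-24 footprint lay on Rasa1, an activator of the GTPase activity of Ras. It had 7.22 in KO and 3.91 in WT (chr13:85355432-85355495), the highest KO value of the 244, and all 6 libraries held it. The same footprint held a match for the miR-17 family. The others of the 6 were weaker, and each rested on fewer libraries. Eri1, an exonuclease of histone mRNA and small RNA, had 0.720 in KO and 2.99 in WT, and Zfp871, a zinc finger gene, 2.83 and 0.645. Tmx4, a thioredoxin-related membrane protein, had 2.07 and 0.980. Ankrd11, a chromatin regulator, had 1.91 and 1.11, and Arhgap27, an activator of small GTPase hydrolysis, 0.984 and 1.32. Eri1 and Ankrd11 were held by 1 KO library each.

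**Figure D3:**
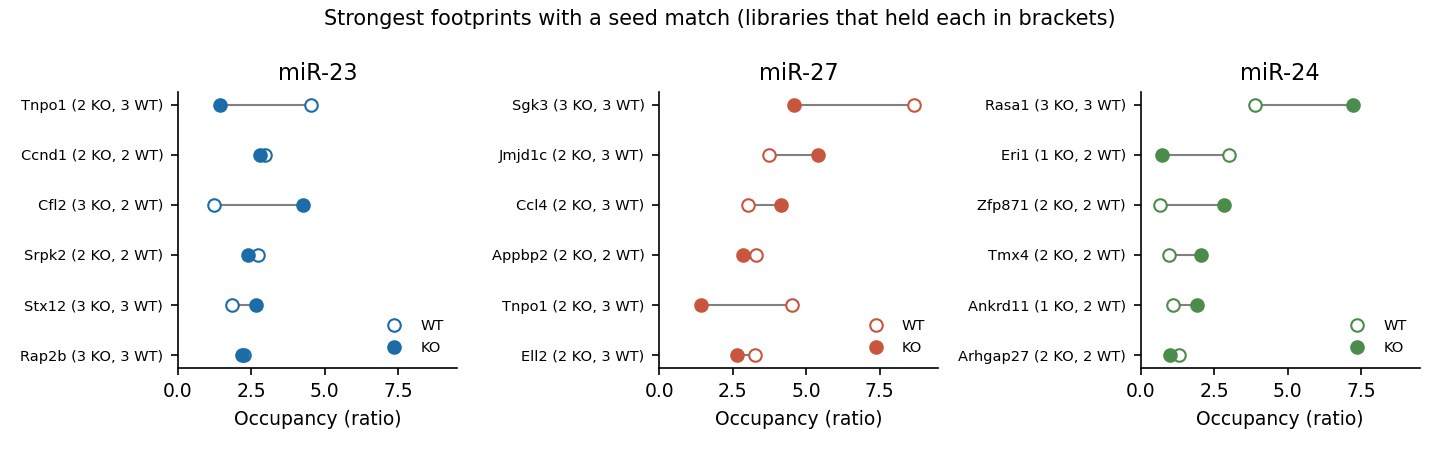
Occupancy (x axis, a ratio) in KO (filled) and WT (open) of the 6 footprints with the highest mean occupancy in each family (y axis, with the number of KO and WT libraries that held each). Sgk3 reaches 8.66 in WT and Rasa1 7.22 in KO, and Tnpo1 appears under miR-23 and miR-27.

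Footprints with a miR-23 match had lower occupancy in KO than in WT, those with a miR-24 match higher, and those with a miR-27 match lay between. Ratios are log2 of KO over WT after adding a pseudocount of 0.00161 to both values, which sets the size of the ratio for footprints listed at 0. The median was -0.36 for miR-23 (95% order-statistic interval -0.81 to -0.12), -0.15 for miR-27 (-0.37 to 0.20) and 0.33 for miR-24 (0.07 to 0.70). Over all 6270 footprints it was -0.04. KO was higher than WT in 32 of 95 miR-23, 43 of 100 miR-27 and 34 of 51 miR-24 footprints, against 48.7% of all footprints. No p-value is given, because each genotype has 1 value.

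A ratio at least 2-fold higher in KO was reached by 13 of the 95 miR-23 footprints (13.7%), 12 of the 100 miR-27 footprints and 13 of the 51 miR-24 footprints (25.5%), against 18.9% of all footprints. A ratio at least 2-fold lower was reached by 33 miR-23 (34.7%), 25 miR-27 and 5 miR-24 footprints (9.80%), against 24.2% of all. The Wilson interval of the lower share was 25.9% to 44.7% for miR-23 and 4.26% to 20.98% for miR-24, the first above and the second below the share of all footprints. For the higher share the intervals of all 3 families held the share of all footprints, at 8.17% to 22.0%, 7.00% to 19.8% and 15.5% to 38.9%. With a pseudocount of 1 the counts over the 244 went from 38 higher and 62 lower to 4 and 4. Over all 6270 footprints this pseudocount left 104 higher (1.66%) and 127 lower (2.03%).

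**Figure D4:**
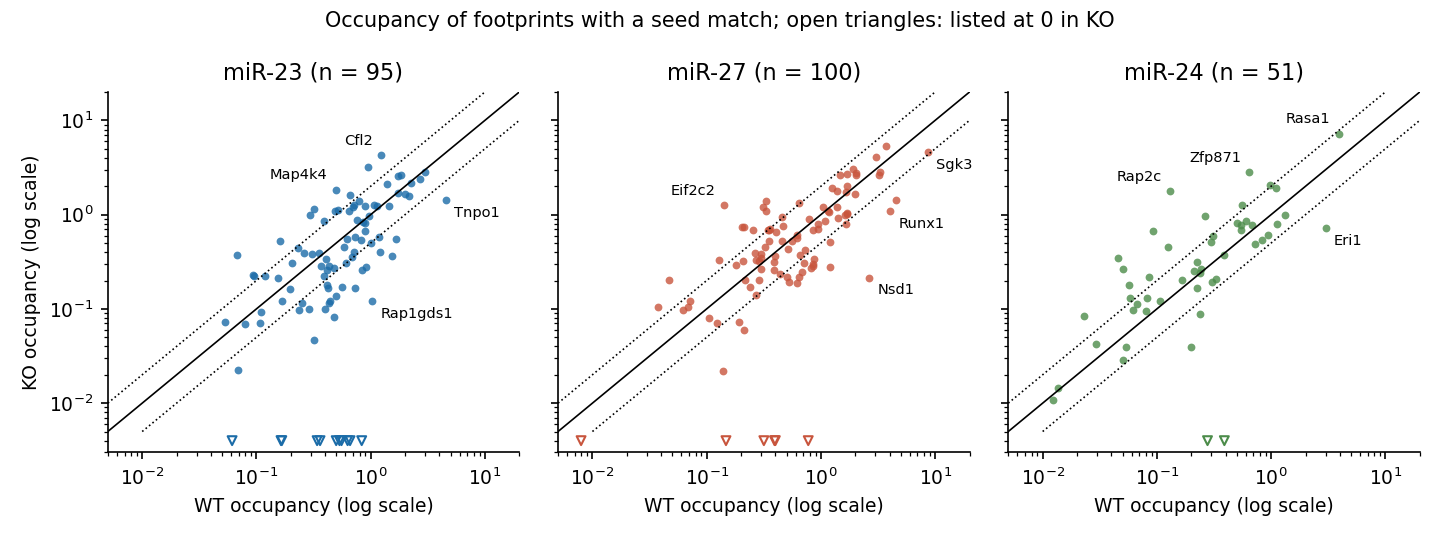
KO occupancy (y axis, log scale) against WT occupancy (x axis, log scale) of each footprint with a match, 1 panel per family with n = 95, 100 and 51. The solid line marks equal values, dotted lines mark 2-fold, and open triangles are footprints listed at 0 in KO, 11 for miR-23, 6 for miR-27 and 2 for miR-24.

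A KO value of 0 was listed for 19 of the 244, against 290 of all 6270 footprints (4.63%). By family these were 11 of 95 miR-23, 6 of 100 miR-27 and 2 of 51 miR-24 footprints.

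Library support is given beside these ratios because it is the only replicate information. At least 2 KO libraries held 36 miR-23 footprints (37.9%), 50 miR-27 footprints and 23 miR-24 footprints (45.1%), against 40.1% of all, an order other than that of the ratios. No KO library held 31 (32.6%), 26 and 12 (23.5%) of them, against 27.9% of all. Of the 33 miR-23 footprints that were at least 2-fold lower in KO, 26 were held by no KO library, as were 1054 of the 1518 such footprints in the whole table. Of footprints that no KO library held, the authors list a KO value above 0 for 50 of the 69 in these families. In the whole table they do so for 1462 of 1752. The origin of these values is unstated. Among footprints held by at least 2 libraries of each genotype, the miR-23 median turned to 0.48 (-0.04 to 0.80, n = 35), with miR-27 at 0.37 (n = 48), miR-24 at 0.48 (n = 18) and all 2196 such footprints at 0.42. By construction, this filter drops footprints with low KO values. In the whole set, more footprints were held by at least 2 WT libraries than by at least 2 KO libraries in every family. At least 2 WT libraries held 94.9% of all footprints and 94 of the 95 miR-23 footprints (98.9%). The shares were 98% for miR-27 and 90.2% for miR-24, so high WT support was not particular to miR-23.

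Base composition moved with the ratios too. Median G+C content was 39.1% in miR-23, 43.3% in miR-27 and 51.6% in miR-24 footprints, and 42.9% over all. Footprints were split into 3 groups of about equal size by G+C content. In the lowest (15.5% to 38.6%) the miR-23 median was -1.15 (-1.72 to -0.36, n = 46), the miR-27 median -0.33 (-1.06 to 0.06, n = 31) and that of footprints with none of the matches -0.53 (-0.60 to -0.44). Within this group, 24 of 46 miR-23 footprints were at least 2-fold lower in KO (52.2%), against 36.5% without a match, and 21.7% were held by at least 2 KO libraries, against 27.1%. In the middle group the medians were -0.04 for miR-23, -0.21 for miR-27, 0.74 for miR-24 (-0.42 to 1.17, n = 15) and -0.03 without a match. In the highest group they were 0.50 for miR-23 (n = 8), 0.23 for miR-27, 0.29 for miR-24 (n = 35) and 0.42 without a match. Wherever a family had an interval, in all 3 groups, that interval held the median without a match. Only 1 miR-24 footprint lay in the lowest group, with no interval. The part of G+C content and of library support in the ratios was not tested further.

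**Figure D5:**
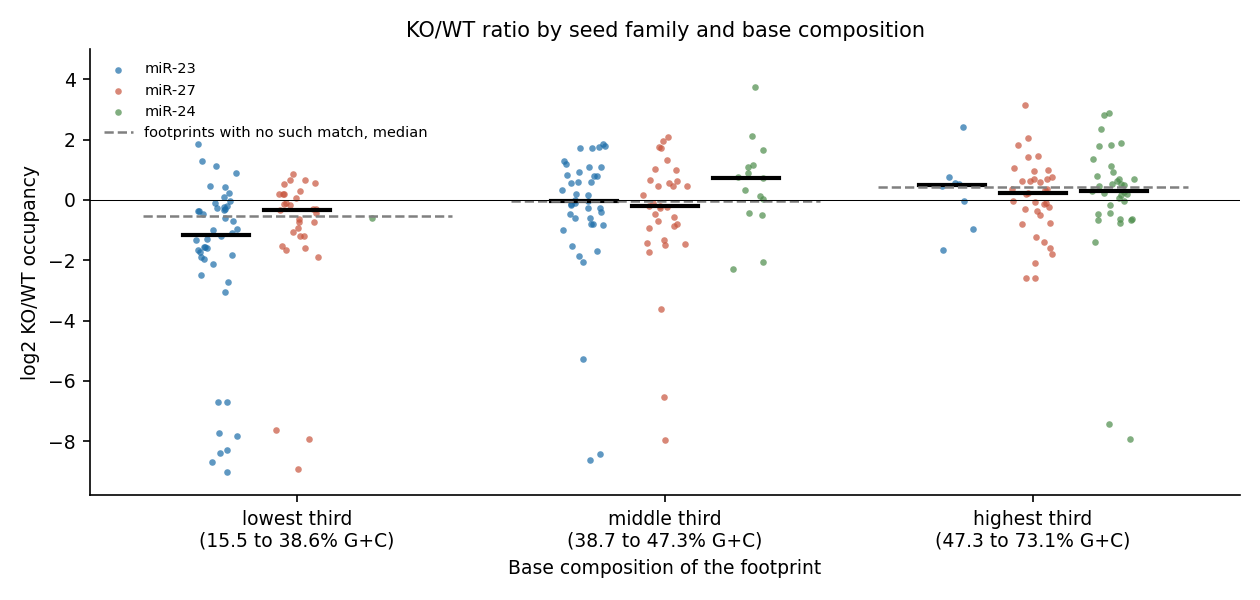
The log2 KO/WT ratio (y axis) of each footprint with a match, in 3 groups of G+C content (x axis) and family (colour). Black bars are family medians (drawn for more than 5 footprints) and dashed grey lines the medians of footprints with none of the matches. The miR-23 median is -1.15 in the lowest group against -0.53, and points below -5 are listed at 0 in KO.

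Occupancy is scaled to transcript expression, so footprints of 1 gene were also set against each other. For 79 miR-23 footprints on genes that carried footprints without a match, the ratio minus the gene's median of these others had a median of -0.24 (-1.18 to 0.23). For 84 miR-27 footprints it was -0.29 (-0.67 to -0.03), with 52 below and 32 above. For 39 miR-24 footprints it was 0.63 (-0.36 to 1.32). Only the miR-27 interval left out 0. The same difference is not given for footprints without a match, so whether their median lies at 0 is unknown. The miR-24 footprints had a G+C content 6.26 percentage points above the others of their gene in the median, and the part of this in the difference was not tested. In occupancy, 50 of the 84 miR-27 footprints were above the median of the gene's others, and 28 were the strongest footprint of their gene. Of the 79 miR-23 footprints, 36 were above and 21 were the strongest, and of the 39 miR-24 footprints, 17 and 10. The same shares over all footprints were not computed, so these counts do not set a family apart.

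The extremes of the ratio, taken above the median mean occupancy of 0.425, lay on genes of signalling, chromatin and RNA. For miR-27 the highest was Eif2c2, which encodes the Argonaute protein AGO2 itself, with 1.26 in KO and 0.141 in WT (3.14; 3 KO and 1 WT libraries). Srgap2, a regulator of Rac, had a ratio of 2.05 and was held by 3 KO and 0 WT libraries. Gspt1, a translation release factor, stood at 1.97. The lowest was Nsd1, a histone methyltransferase, with 0.215 in KO and 2.64 in WT (-3.61; no KO library). Sdcbp, the adaptor syntenin, followed at -2.10. Runx1, a transcription factor of blood cells, had 1.10 and 4.06 (-1.89) and was held by 2 KO and 3 WT libraries. Among these miR-27 extremes, Runx1 and Gspt1 were held by at least 2 libraries of each genotype.

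For miR-23 the highest ratios were those of the kinase genes Map4k4 (1.87) and Cdk14 (1.84) and of Cfl2 (1.79). They were held by 1, 2 and 3 KO libraries, and by 2 WT libraries each. The lowest was Rap1gds1, a chaperone of small GTPases, with 0.121 in KO and 1.02 in WT (-3.06), followed by Nucks1 (-2.11) and the kinase Nuak2 (-2.07). No KO library held Rap1gds1 or Nucks1, and 1 held Nuak2. For miR-24 the highest was the small GTPase Rap2c, with 1.76 in KO and 0.131 in WT (3.73; 2 KO and 1 WT libraries), a footprint that also held matches for 3 other miRNA families. Zfp871 (2.13) and Ankrd52 (1.88), a regulatory subunit of protein phosphatase 6, followed. This Ankrd52 footprint was held by 1 KO library. Eri1 was the lowest at -2.05. The activin receptor gene Acvr1b, also among the lowest, stood at -0.63 and did not reach 2-fold.

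Footprints held by all 6 libraries are the best supported, and 19 of them had a match (7.79% of the 244), against 5.89% of all footprints. They comprised 11 for miR-27, 5 for miR-23 and 3 for miR-24. Their ratios ran from -0.92 to 1.06 with a median of 0.36, and 12 were higher in KO. All 369 footprints held by 6 libraries had a median of 0.13, and 210 of them were higher in KO (56.9%). Of the 369, 25 were at least 2-fold higher and 16 at least 2-fold lower. Of the 19, 1 was at least 2-fold higher and 0 lower. The higher one was Elmo1 (1.34 in KO and 0.642 in WT), whose protein activates Rac during engulfment of dying cells. Besides Sgk3, Rasa1, Stx12 and Rap2b, the strongest were Plagl2, a zinc finger transcription factor (2.74 and 2.01), the ubiquitin ligase Znrf2 (2.66 and 2.05) and Ankrd52 (2.56 and 1.74). Dram2, a lysosomal membrane protein of autophagy, had 1.73 and 1.66, and the kinase Cdk18 1.79 and 1.39. Wsb1, a SOCS-box protein, was lower in KO, at 1.01 and 1.69.

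The 14 genes with 2 such footprints included some whose footprints went opposite ways. Counting Tnpo1 and Zbtb34, 11 genes held matches of 2 families and 0 held all 3. Arf6, a GTPase of endocytic recycling and phagocytosis, had a miR-23 footprint with 1.38 in KO and 0.791 in WT and a miR-27 footprint with 1.195 and 1.04, both higher in KO. Elmo1 had, beside its miR-27 footprint, a miR-23 footprint with 1.25 and 1.07, which no KO library held. In Tmx4 the miR-24 footprint was higher in KO (ratio 1.08) and the miR-23 footprint lower (-1.60; no KO library). Snx12, a sorting nexin, had 0.52 at its miR-24 and -1.60 at its miR-27 footprint, and Tet3, an enzyme that oxidises methylcytosine, 1.75 and -1.58 at 2 miR-23 footprints. Npc2, which binds cholesterol in lysosomes, had 0.180 and 0.0565 at miR-24, with 1 KO library. Its miR-27 footprint was listed at 0 in KO and 0.00796 in WT, the lowest mean occupancy of all footprints. Of the others, Ankrd52 was higher in KO at both, Arrb1 and Cav2 were higher at 1, and Elf1, Etnk1, Igsf6, Rap2b and Ywhag were lower at both.

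Genes named in earlier reports as targets of these miRNAs, listed from memory across tissues, were asked for in the same footprints. Their lists were drawn up with results of these data known and are no independent support. Of 48 symbols for miR-27, 18 had footprints, and 4 of their 92 footprints held a miR-27 match (4.35%, against 1.59% of all), among them those of Tnpo1, Runx1 and Plk2. Of 53 for miR-24, 15 had footprints, and 4 of 46 held a miR-24 match (8.70%, against 0.813%): Cdkn1b, Hmox1, H2afx and Acvr1b. Of 30 for miR-23, 10 had footprints, and 1 of 40 held a miR-23 match, that of Tgfbr2. The target sites not yet shown are printed to let each pairing be read.
Tgfbr2, miR-23 match, chr9:115996932-115996953, minus strand: tgtattcaaataggAATGTGAa
Runx1, miR-27 match, chr16:92605794-92605815, minus strand: aatcccggagggaaACTGTGAa
Plk2, miR-27 match, chr13:111190846-111190867, plus strand: cttttggctgcttaACTGTGAa
Cdkn1b, miR-24 match, chr6:134875429-134875450, plus strand: taaaaggttgcataCTGAGCCa
Hmox1, miR-24 match, chr8:77624178-77624199, plus strand: taaaagcagctgttCTGAGCCc
H2afx, miR-24 match, chr9:44144028-44144049, plus strand: aatccctgtctggaCTGAGCCt
Acvr1b, miR-24 match, chr15:101042892-101042913, plus strand: gcttgtctttgcacCTGAGCCt
Among these, Plk2, a polo-like kinase, had 3.06 in KO and 1.91 in WT. The cell cycle inhibitor Cdkn1b had 0.486 in KO, with no KO library, and 0.730 in WT. The haem-degrading enzyme gene Hmox1 had 0.132 and 0.0814, the histone variant gene H2afx 0.206 and 0.327, and Acvr1b 0.533 and 0.825. Tgfbr2, a receptor of TGF-β, was listed at 0 in KO and had 0.340 in WT. Of the genes whose sites are printed here, Runx1 was the only one above 0 in both genotypes that differed by 2-fold or more.

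Broader gene groups were read against the 3.89% of all footprints that held a match of any of the 3 families. TGF-β and BMP signalling genes had 2 in 50 footprints (4.00%), both lower in KO, on Tgfbr2 and Acvr1b. Apoptosis and cell cycle genes had 3 in 67 footprints (4.48%), on Ccnd1, Ccng1 and Cdkn1b, all with lower values in KO. Of these, Ccnd1 was close to equal, and no KO library held the footprints of Ccng1 and Cdkn1b. Lipid handling genes had 4 in 56 footprints (7.14%), of which 3 were higher in KO. Inflammatory signalling genes had 0 in 31 footprints on 14 genes. Over all footprints, 48.7% were higher in KO. With counts this small, neither the shares nor the directions set any group apart.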

How the data were processed

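Ago HITS-CLIP was measured in 3 WT and 3 KO libraries, grouped by the genotype label. The authors, per the design text of the series, split reads by length, aligned them to mm9, joined overlapping mRNA reads into clusters and took a footprint around each peak. They deposited occupancy as a ratio of footprint signal to RNA-Seq expression, 1 value per genotype, and the number of libraries that held each footprint. The submitters' processing notes list Bowtie 0.12.8 and bedtools. How libraries were combined is not stated.

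Footprints were placed on NCBIM37 (mm9) and GENCODE vM1 by same-strand overlap, with 3′ UTRs taking precedence over other parts of a gene. Where several genes of a class overlapped, the longest overlap was used. Sequence was read with pysam 0.24.0 and seeds were taken from RefSeq. Coordinates are counted from 1. Files start from 0. Ratios use a pseudocount of 50% of the smallest value above 0. Intervals are 95% Wilson or order-statistic intervals, computed with scipy 1.17.1. Site search and medians were tested on simulated data. Genes were named by rule. For each family these were the 6 footprints of highest mean occupancy, then the 3 highest and 3 lowest ratios, the ratios taken only where both values exceeded 0 and the mean occupancy reached the table's median. The rule also took footprints with 2 families, genes with 2 footprints with a match, footprints of the target lists, and the 10 strongest held by all 6 libraries. Plec, Prkcb and Sirpa, and the sites printed for target-list genes, were chosen after their values were seen. Members and lists were chosen with earlier results of these data known. Results on some genes that the rule names are not reported here.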

Additional observations from a re-analysis of the deposited data

How the results depend on the processing

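The median ratio of miR-23 footprints was the value that depended most on library support: it turned from -0.36 to 0.48 among footprints held by at least 2 libraries of each genotype, a set that leaves out footprints low in KO by construction. It moved to -0.025 with at least 1 library of each genotype, to -0.067 at or above the median mean occupancy and to -0.094 with a pseudocount of 1. The median over all footprints, -0.038, also moved, to 0.28, 0.074 and -0.0074 under these 3 settings. With at least 2 libraries of each genotype it was 0.42. miR-27 moved to 0.37 with at least 2 libraries of each genotype, and miR-24 to 0.048 with a pseudocount of 1. Over the 244 footprints, the median moved to 0.45 with at least 2 libraries of each genotype, 0.23 with at least 1, and -0.30 for 8-mers. The count at least 2-fold higher, 38, became 23 at or above the median mean occupancy, 20 with at least 2 libraries of each genotype, 12 for 8-mers and 4 with a pseudocount of 1. The count lower, 62, became 22, 2, 29 and 4 under these settings, 41 for matches in the narrow window and 15 with at least 1 library of each genotype. Under these filters on occupancy or libraries, the shares over all footprints moved in the same directions. At or above the median mean occupancy, 17.97% of the footprints with a match were higher and 17.2% lower, against 20.9% and 20.0% of all. With at least 2 libraries of each genotype these were 20.0% and 2.00%, against 26.2% and 5.01%. With at least 1 they were 21.3% and 8.62%, against 24.9% and 10.3%. A pseudocount of 1 left 104 higher (1.66%) and 127 lower (2.03%) of all footprints. The share of footprints with a match, 3.89%, was 1.48% for 8-mers, 6.16% when bases 2 to 7 with an A also counted, 2.63% in the narrow window and 4.55% with at least 2 libraries of each genotype. The share held by at least 2 KO libraries, 44.3%, was 55.5% at or above the median mean occupancy, and 71.7% were held by at least 1. Settings with fewer footprints give smaller counts by construction. The cause of the other moves was not tested. The settings with at least 1 library of each genotype, the comparison within genes and the groups of mean occupancy and library support were chosen after seeing the data. No paired analysis was possible because the table holds 1 combined value per genotype, and leaving out a replicate was not run for the same reason. Depth is unknown.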

Other observations

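Matches for other miRNA families shared some of these footprints. Leaving out miR-128, a match for any of 18 other families was held by 21 of 95 miR-23 footprints (22.1%), 14 of 100 miR-27 footprints and 6 of 51 miR-24 footprints (11.8%), against 13.8% of all footprints. With miR-181, whose match can overlap that of miR-23, also left out, these were 15 (15.8%), 11 and 6, against 12.9% of all, a setting chosen after seeing the data. The miR-181 match stood in 8.42% of miR-23 footprints and 1.18% of all. Footprints with overlapping miR-27 and miR-128 matches had a median log2 KO/WT ratio of -0.21 (n = 29), those with miR-27 alone -0.15 (n = 71) and those with miR-128 alone 0.01 (n = 64). The median ratio was -0.78 for the 35 footprints with a miR-23 8-mer and -0.23 for the 60 with the 7-nt match alone, with intervals of -1.68 to -0.23 and -0.69 to 0.44 that overlap.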
